A study of Mus musculus with 6 samples.

Results

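The 10 genes described here belong to the NRF2 and glutathione antioxidant system: Nfe2l2, Keap1, Nqo1, Hmox1, Gclc, Gclm, Gsr, Txnrd1, Prdx1 and Srxn1. They were taken by name from the 27179 gene identifiers of a count table, with earlier results of these data known. All 10 passed the filter on low counts that 14199 identifiers passed. Embryonic stem cells of the mouse line background E14TG2a were used, in which Trim71, a TRIM-NHL protein that binds RNA, carried a FLAG tag. In the 3 WT libraries the tagged protein was otherwise unchanged, and in the 3 R783H libraries it carried that amino-acid change. All cells grew on gelatin in serum-containing 2i medium with LIF, so both groups were exposed to a GSK3 inhibitor, a MEK inhibitor and 0.1 mM beta-mercaptoethanol, a thiol reductant. The letters A, B and C that tell libraries of a group apart are not explained in the labels as clones, cultures or preparations. The p-values therefore measure only the spread between these libraries, which may be technical.

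Nfe2l2 encodes NRF2, a transcription factor that pairs with small MAF proteins on antioxidant response elements. KEAP1 holds NRF2 in a ubiquitin ligase complex and has it degraded, and oxidants or electrophiles that modify cysteines of KEAP1 let NRF2 accumulate. Its known targets make glutathione, keep glutathione and thioredoxin reduced, and detoxify quinones and haem. NRF2 is controlled largely at the level of the protein, which RNA sequencing does not measure.

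Because the core of the antioxidant response element is a short sequence, the RefSeq promoters of the members (GRCm38.p6, 250 bases before to 50 bases after a gene's start) were searched on both strands for TGACNNNGC. The table holds such windows for 7 of the 10 members and not for Hmox1, Gclc and Gsr. The core was present for 5 of the 7, namely Nfe2l2, Gclm, Txnrd1, Prdx1 and Srxn1, and these letters were not in the windows of Keap1 and Nqo1. Over all promoters, 13.99% of 27025 genes held it in at least 1 window, and 12.4% of 32851 windows did. The 4 matches that lie upstream of the start are shown with the matched bases in capitals, read 5′ to 3′ along the gene's own strand. In Srxn1 the match lay 28 bases after the start. The Nfe2l2 stretch is at chr2:75704869-75704913, with its match 240 bases upstream of the start, and it also lies in an exon of E030042O20Rik, a non-coding gene on the opposite strand. The Gclm stretch is at chr3:122245397-122245457, the Txnrd1 stretch at chr10:82859088-82859148 and the Prdx1 stretch at chr4:116685440-116685500, with matches 134, 92 and 133 bases upstream of the start that the promoter table uses. For Gclm and Txnrd1 that start lies inside the annotated span of the gene, and for Txnrd1 the core was found in 1 of 3 promoter windows.
Nfe2l2 (minus strand): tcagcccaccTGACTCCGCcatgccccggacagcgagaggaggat
Gclm (plus strand): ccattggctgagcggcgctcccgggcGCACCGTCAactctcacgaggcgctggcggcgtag
Txnrd1 (plus strand): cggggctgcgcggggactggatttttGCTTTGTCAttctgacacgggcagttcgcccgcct
Prdx1 (plus strand): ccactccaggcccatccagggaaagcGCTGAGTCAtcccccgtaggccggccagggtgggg

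In Gclm, Txnrd1 and Prdx1 the core reads on the strand opposite to the gene, and in Nfe2l2 on the gene's own strand. Prdx1 was the only member with the narrower form TGACTCAGC, which is contained in the broader search. That form was present in 0.454% of all promoter windows and for 0.5% of genes. These matches describe letters in a window, and whether NRF2 binds there was not tested.

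Total counts ran from 20894277 to 25174121 per WT library and from 27807385 to 29079670 per R783H library, so every R783H library was deeper. Values are CPM, a gene's counts relative to the size of its library after TMM scaling, a correction for composition, and those of single libraries are listed in the order A, B, C. A count of 3 corresponds to 0.0998 to 0.149 CPM, far under the level of every member. Trim71 itself gave 131, 131 and 159 CPM in WT and 152, 129 and 150.5 CPM in R783H, and a gene count does not check an amino-acid change. The 8 pluripotency markers summed to 6423 to 6530 CPM in WT and 6145 to 6247 CPM in R783H, with none at 0. Among them Pou5f1, Nanog and Zfp42 were called lower, Tbx3 and Tfcp2l1 higher, and Sox2, Esrrb and Klf4 were not called. Summed CPM of 10 extraembryonic endoderm markers was 154 to 164 in WT and 280.4 to 289.7 in R783H, with Afp at 0 in every library. Lama1 carried this difference: without it the other 9 summed to 20.7 to 23.2 CPM in WT and 18.2 to 20.5 CPM in R783H. Lama1, Gata4 and Sox17 were called higher and Col4a1 and Amn lower. The 7 trophectoderm markers summed to 117.6 to 118.1 CPM in WT and 81.3 to 90.7 CPM in R783H, with none at 0. Of these, 3 were called lower and 2 were not called, and Elf5 and Hand1 did not pass the low-count filter. For 8 fibroblast markers the sum was 3.28 to 3.86 CPM in WT and 2.18 to 3.13 CPM in R783H, with Twist2 at 0. The part of these marker differences in the results that follow was not tested.

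Of the 10 members, Nfe2l2 rose in R783H cells, 7 members fell, and Gclc and Srxn1 did not pass the test. Calls rest on edgeR quasi-likelihood p-values adjusted by Benjamini and Hochberg across all tested genes, with 0.05 as threshold. The changes were modest, from a fall of 32.0% for Gclm to a rise of 35.2% for Nfe2l2. Such calls were common in this comparison: 64.5% of all tested genes were called, 33.5% as higher and 30.9% as lower. Against these shares, 8 of 10 members were called, 1 as higher and 7 as lower. The values of the WT and R783H libraries did not overlap for 8 of the 10 members, beside 68.1% of all tested genes. The median log2 fold change of the members was -0.25, beside 0.03 for all tested genes. In bulk RNA, fewer cells of a type and less RNA per cell cannot be told apart.

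**Figure D1:**
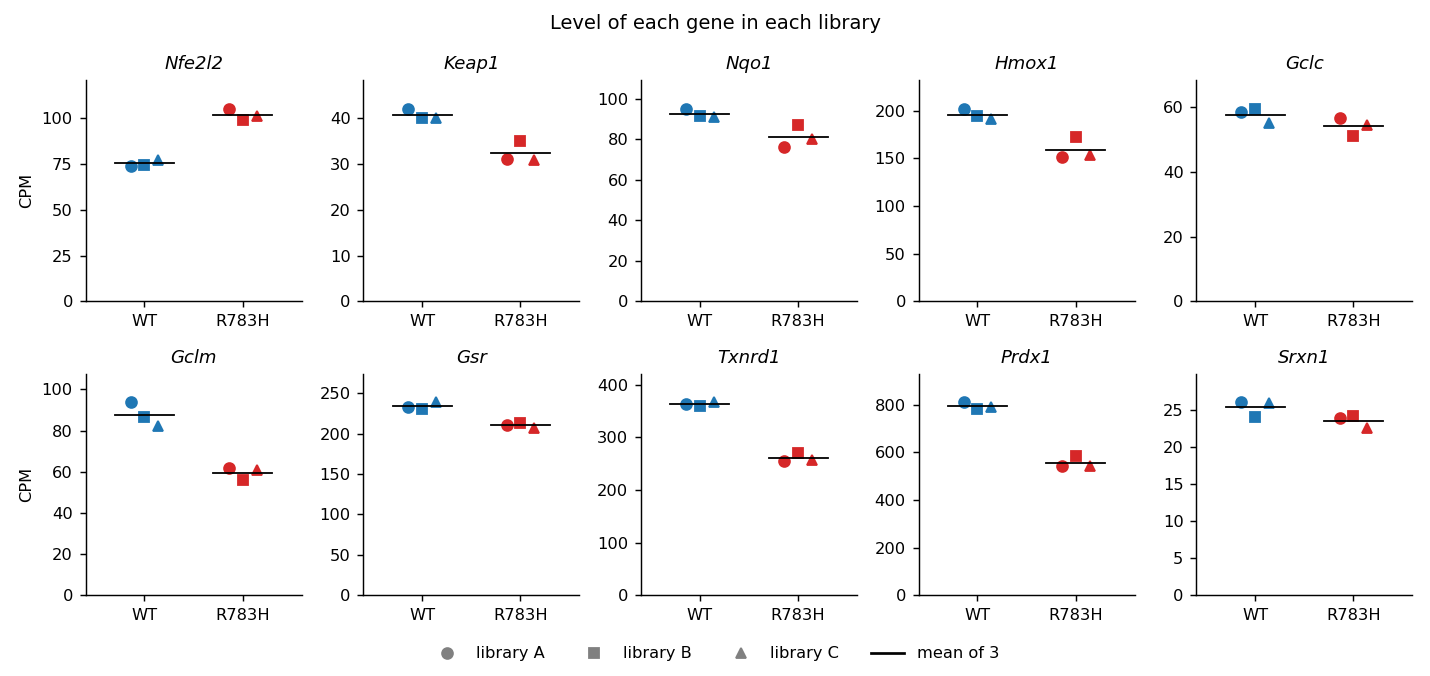
Each point is the CPM of 1 library (TMM-scaled), with a panel per member, the WT and R783H groups side by side and the group mean as a line. Nfe2l2 sits higher in R783H, 7 members sit lower without overlap, and the groups overlap for Gclc and Srxn1.

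Nfe2l2 (Entrez Gene 18024, chr2:75675513-75704663, GRCm38), the gene of the transcription factor, had 73.7, 74.7 and 77.4 CPM in WT and 105, 98.9 and 101 CPM in R783H. Every R783H library exceeded every WT library, and the gap was several times the spread within either group. Mean CPM was 75.3 ± 1.94 (SD, n = 3) in WT and 102 ± 3.20 (SD, n = 3) in R783H. The log2 fold change was 0.44 (SE 0.05, 95% interval 0.33 to 0.54), with an adjusted p = 1.13e-05 in edgeR's quasi-likelihood test. Among all tested genes, 22.6% rose by this much or more.

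Keap1 (Entrez Gene 50868, chr9:21229730-21239332), the gene of the NRF2 inhibitor, moved the other way. It had 42.1, 40.1 and 40.1 CPM in WT and 31.2, 35.0 and 30.9 CPM in R783H, again without overlap. R783H B stood nearest to WT. Mean CPM fell by 20.7%, from 40.8 ± 1.19 to 32.3 ± 2.27 (SD, n = 3 each), a log2 fold change of -0.33 (SE 0.06, 95% interval -0.47 to -0.20, adjusted p = 7.04e-04 in edgeR's quasi-likelihood test). An annotated gene on the opposite strand, Gm16754, shares exon sequence with Keap1, and the use of strand in the counting is not given in the sources used here.

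The ratio of Keap1 to Nfe2l2 within each library, with each CPM divided by the length of the longest annotated transcript, puts these 2 results on 1 scale and adds no support to them. This ratio does not depend on how libraries are scaled. The Keap1 to Nfe2l2 ratio was 0.392, 0.367 and 0.354 in WT and 0.203, 0.242 and 0.209 in R783H. Its mean was 0.371 ± 0.0189 in WT and 0.218 ± 0.0211 in R783H (SD, n = 3 each), a log2 difference of -0.77. Since the 2 genes moved in opposite directions without overlap, the ratios had to separate, and no test is given. The ratio is one of transcripts and says nothing of the amounts of the proteins.

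**Figure D2:**
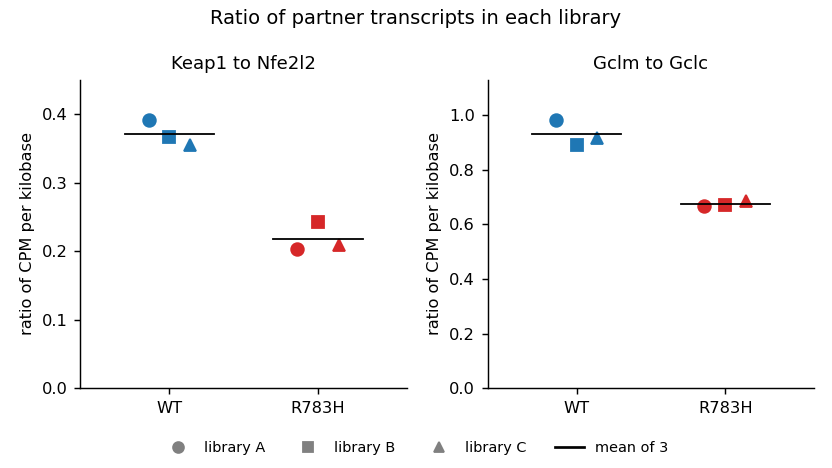
Ratios of length-scaled CPM within each library, Keap1 over Nfe2l2 and Gclm over Gclc, with 1 point per library and the group mean as a line. Both ratios were lower in all 3 R783H libraries than in all 3 WT libraries.

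Nqo1 and Hmox1 are the classic NRF2 target enzymes of quinone reduction and haem breakdown. Nqo1 (Entrez Gene 18104, chr8:107388225-107403205) had 95.0, 91.3 and 91.0 CPM in WT and 76.3, 86.9 and 79.9 CPM in R783H. The groups did not overlap, but R783H B came close to the lowest WT library. Mean CPM fell by 12.4%, from 92.5 ± 2.21 to 81.0 ± 5.39 (SD, n = 3 each), with a log2 fold change of -0.19 (SE 0.05, adjusted p = 0.0102 in edgeR's quasi-likelihood test). This call depended on scaling. With library size alone the log2 fold change of Nqo1 was -0.11 (edgeR adjusted p = 0.0867), and with an offset for transcript length and GC content it was -0.08 (edgeR adjusted p = 0.114).

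Hmox1 (Entrez Gene 15368, chr8:75093618-75100593), the inducible haem oxygenase, had 202, 194 and 191 CPM in WT and 152, 172 and 153 CPM in R783H. No R783H library reached the lowest WT value, and R783H B was again the highest of its group. The mean fell by 18.8%, from 196 ± 5.64 to 159 ± 11.3 (SD, n = 3 each), a log2 fold change of -0.30 (SE 0.05, adjusted p = 5.38e-04 in edgeR's quasi-likelihood test). The offset for length and GC content moved the log2 fold change of Hmox1 to -0.17 and kept the call.

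Glutathione synthesis starts with glutamate-cysteine ligase, whose catalytic subunit is the product of Gclc and whose modifier subunit, the product of Gclm, raises its activity. Gclc (Entrez Gene 14629, chr9:77754535-77794489) had 58.4, 59.5 and 54.9 CPM in WT and 56.7, 51.1 and 54.3 CPM in R783H. These ranges overlapped. Mean CPM was 57.6 ± 2.37 in WT and 54.0 ± 2.84 in R783H (SD, n = 3 each), and the log2 fold change was -0.09 (SE 0.06, 95% interval -0.22 to 0.03, adjusted p = 0.172 in edgeR's quasi-likelihood test).

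Gclm (Entrez Gene 14630, chr3:122245487-122267215) showed the largest fall among the members. It had 93.7, 86.6 and 82.1 CPM in WT and 61.7, 55.9 and 60.8 CPM in R783H, with a wide gap between the groups. Mean CPM fell by 32.0%, from 87.5 ± 5.84 to 59.5 ± 3.11 (SD, n = 3 each), a log2 fold change of -0.56 (SE 0.06, 95% interval -0.69 to -0.42, adjusted p = 1.28e-05 in edgeR's quasi-likelihood test). Among all tested genes, 11.3% fell by this much or more. Gm6061 on the same strand and Gm17494 on the opposite strand share exon sequence with Gclm, so its count is uncertain to the extent that the counting assigned their reads to it.

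The subunit transcripts therefore stood in a different proportion in the R783H libraries. Per length, the Gclm to Gclc ratio was 0.983, 0.892 and 0.915 in WT and 0.666, 0.671 and 0.686 in R783H. Its mean was 0.930 ± 0.0472 in WT and 0.674 ± 0.0104 in R783H (SD, n = 3 each), a log2 difference of -0.46. Given the gap between the groups in Gclm and the narrow range of Gclc, the ratios had to separate, and no test is given. The ratio adds no support to the result for Gclm. All R783H ratios lay in a narrower range than the WT ratios.

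Gsr (Entrez Gene 14782, chr8:33653238-33698162) encodes glutathione reductase, which returns oxidized glutathione to its reduced form with NADPH. It had 233, 231 and 239 CPM in WT and 211, 213 and 207 CPM in R783H, without overlap. The fall was from a mean of 234 ± 4.06 to 210.3 ± 3.23 CPM (SD, n = 3 each), with a log2 fold change of -0.15 (SE 0.04, adjusted p = 0.00530 in edgeR's quasi-likelihood test). This was the smallest change that was called among the members. With library size alone as the scale, the log2 fold change of Gsr was -0.07 and the call was lost (edgeR adjusted p = 0.115).

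Txnrd1, Prdx1 and Srxn1 serve the thioredoxin branch: a cytosolic selenoenzyme that reduces thioredoxin, an abundant peroxidase that thioredoxin recycles, and the enzyme that repairs overoxidized peroxiredoxins. Txnrd1 (Entrez Gene 50493, chr10:82833951-82897724) had 363, 360.3 and 366 CPM in WT and 255, 271 and 257 CPM in R783H. The spread within each group was small beside the gap. Mean CPM fell by 28.2%, from 363 ± 3.03 to 261 ± 8.64 (SD, n = 3 each), a log2 fold change of -0.48 (SE 0.04, 95% interval -0.57 to -0.39, adjusted p = 2.12e-06 in edgeR's quasi-likelihood test).

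Prdx1 (Entrez Gene 18477, chr4:116685599-116700000) had 810.3, 783 and 790.2 CPM in WT and 543, 584 and 545 CPM in R783H. Every R783H library was well under every WT library. Its mean fell by 29.9%, from 795 ± 14.0 to 557 ± 23.5 (SD, n = 3 each), a log2 fold change of -0.51 (SE 0.04, 95% interval -0.61 to -0.42, adjusted p = 1.90e-06 in edgeR's quasi-likelihood test). Gm21399 holds a stretch of at least 100 nt at 98% identity or more to Prdx1, so reads could have been split between them.

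Srxn1 (Entrez Gene 76650, chr2:152105524-152111376), sulfiredoxin, had 25.99, 24.1 and 25.97 CPM in WT and 23.9, 24.2 and 22.5 CPM in R783H. R783H B exceeded WT B, so the groups overlapped. Mean CPM was 25.3 ± 1.11 in WT and 23.5 ± 0.905 in R783H (SD, n = 3 each), with a log2 fold change of -0.10 (SE 0.06, 95% interval -0.24 to 0.03, adjusted p = 0.168 in edgeR's quasi-likelihood test). The intervals of Gclc and Srxn1 both reach from a fall of about the size called for Nqo1 to a small rise, so they do not show that these transcripts stayed level.

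**Figure D3:**
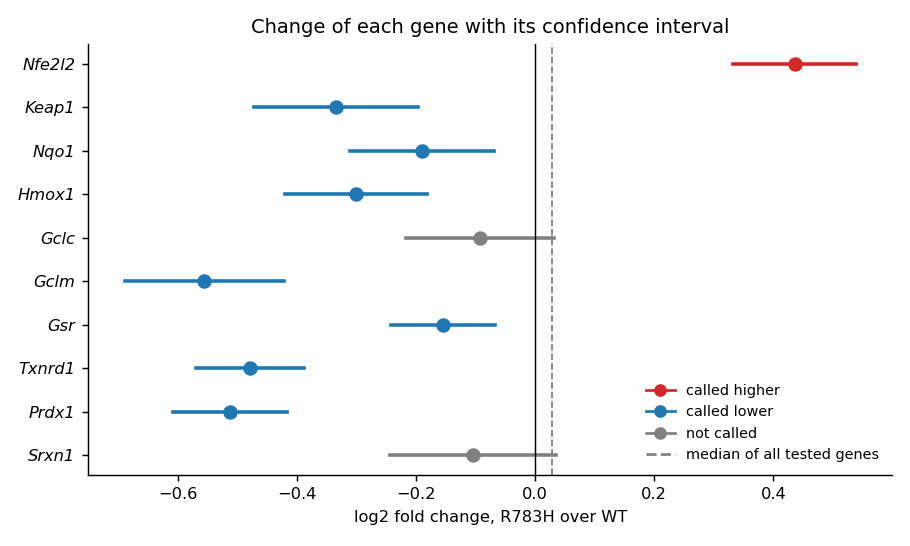
Log2 fold change of R783H over WT for each member, with its confidence interval, against 0 and the median of all tested genes. Nfe2l2 lies above 0, Gclm and Prdx1 lie farthest under it, and the intervals of Gclc and Srxn1 cross 0.

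Among the 7 members that fell, R783H B was the highest R783H library for 6, Gclm being the exception. Without R783H B the median log2 fold change of the 10 members was -0.32. The coefficient of variation of a member's CPM ran from 0.835% (Txnrd1) to 6.68% (Gclm) over WT libraries and from 1.54% (Gsr) to 7.11% (Hmox1) over R783H libraries.

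Levels of different members were compared only as CPM per kilobase of transcript. On that scale Prdx1 was the most abundant in WT, with a mean of 346 CPM per kilobase, followed by Hmox1 at 125, Txnrd1 at 100.3 and Gsr at 87.6 CPM per kilobase. Nqo1 stood at 59.5 and Nfe2l2 at 30.4 CPM per kilobase. Gclc at 16.8 and Gclm at 15.6 CPM per kilobase were neighbours whose WT ranges overlapped, from 16.0 to 17.4 for Gclc and from 14.7 to 16.8 for Gclm. Keap1 at 11.3 and Srxn1 at 9.01 CPM per kilobase closed the order. In R783H the order differed in 1 place: Gsr, at 78.7 CPM per kilobase, stood above Txnrd1 at 71.98. The R783H ranges of Keap1 (8.55 to 9.67 CPM per kilobase) and Srxn1 (8.01 to 8.61 CPM per kilobase) overlapped. With the length of the principal transcript in place of the longest, only the level of Txnrd1 differed, at 103 in WT and 73.8 CPM per kilobase in R783H.

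The regulators and partners of NRF2 were mixed: of 15 listed genes, all tested, 6 rose, 2 fell and 7 were not called. Beside the counts of this and the following lists, 33.5% of all tested genes were called higher and 30.9% lower. Their median log2 fold change was 0.15, beside 0.02 with the length and GC offset and 0.23 with library size alone. Bach1, a repressor that competes with NRF2 for the same DNA elements, rose from 34.8 ± 1.41 to 57.0 ± 2.91 CPM (SD, n = 3 each), a log2 fold change of 0.71 (adjusted p = 1.47e-06, edgeR quasi-likelihood). Mafk, a small MAF partner, fell from 5.07 ± 0.441 to 3.77 ± 0.473 CPM (log2 fold change -0.43, adjusted p = 0.0136 in edgeR's quasi-likelihood test), and without WT C the call was lost. The other small MAF genes, Mafg and Maff, were added after their values were seen. Mafg was more abundant and rose from 44.2 ± 0.285 to 49.7 ± 3.37 CPM (log2 fold change 0.17), and Maff was not called. Dpp3, which can bind KEAP1, fell from 268 ± 5.73 to 226 ± 18.6 CPM, a log2 fold change of -0.25. Gsk3b, a kinase whose activity marks NRF2 for degradation and that the medium inhibits, had 84.6 ± 8.36 CPM in WT and 102 ± 10.1 CPM in R783H (log2 fold change 0.27), and was not called without WT B, without R783H C or with the length and GC offset. Sqstm1, which encodes the KEAP1-binding autophagy receptor p62 and was the most abundant of the list per length, had 258 ± 8.73 CPM in WT and 256 ± 20.3 CPM in R783H and was not called. Without R783H B its log2 fold change was -0.096 and passed the test. The number of regulators called higher was 3 with DESeq2, 3 with the length and GC offset, 3 without R783H A, R783H C or WT A, and 2 without WT B. The number called lower was 4 without R783H B and 1 without WT C.

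Other steps around glutathione went in both directions: of 25 listed genes, 24 were tested, 8 rose, 7 fell and 9 were not called. Their median log2 fold change was 0.00, with a sign that changed with the scaling. Slc7a11, the light chain of the cystine importer, fell from 13.2 ± 1.405 to 8.33 ± 0.506 CPM (SD, n = 3 each), a log2 fold change of -0.67 (adjusted p = 1.06e-04, edgeR quasi-likelihood). Slc3a2, its heavy chain, had 326 ± 11.3 CPM in WT and 359 ± 21.9 CPM in R783H (log2 fold change 0.14), a call that was lost with RLE factors, with DESeq2 and without R783H A, R783H B, WT B or WT C. Gss, which completes glutathione synthesis, fell from 97.4 ± 1.74 to 71.9 ± 5.21 CPM, a log2 fold change of -0.44. Both Slc3a2 and Gss were chosen after their values were seen. Chac1, which degrades glutathione, rose from 7.85 ± 0.584 to 14.0 ± 0.737 CPM, a log2 fold change of 0.83. Cbs, which feeds sulfur from homocysteine toward cysteine, rose from 79.1 ± 3.45 to 129 ± 6.94 CPM, a log2 fold change of 0.71. Cth, added after its values were seen, rose from 144 ± 4.28 to 188 ± 4.47 CPM, a log2 fold change of 0.39. Abcc1, an exporter of glutathione conjugates, rose from 60.4 ± 1.75 to 85.7 ± 1.35 CPM, a log2 fold change of 0.50 that was 0.32 with the length and GC offset. Gpx1, the most abundant of the list per length and a glutathione peroxidase, fell from 459 ± 18.6 to 384 ± 29.4 CPM (log2 fold change -0.26) and was not called with the length and GC offset. The other glutathione peroxidases of the list, added after their values were seen, differed. Gpx4 rose from 35.6 ± 3.53 to 43.8 ± 5.52 CPM (log2 fold change 0.30), Gpx7 was called lower, and Gpx2, Gpx3 and Gpx8 were not called.

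The glutathione transferases, which join glutathione to electrophiles, differed by member: of 24 listed genes, 19 were tested, 8 rose, 5 fell and 6 were not called. Their median log2 fold change, 0.20, was unstable: it was 0.10 without R783H B, 0.12 without WT A, 0.30 without WT B, 0.34 with the length and GC offset and -0.068 without the filter on low counts. Gsto1 fell from 19.3 ± 1.22 to 7.14 ± 0.282 CPM, a log2 fold change of -1.44, and Gsta3 from 17.4 ± 0.647 to 9.70 ± 0.0755 CPM, a log2 fold change of -0.84. Gstt2 rose from 4.56 ± 0.245 to 10.5 ± 0.443 CPM, a log2 fold change of 1.20, and Gstz1 from 16.9 ± 0.293 to 36.5 ± 3.46 CPM, a log2 fold change of 1.11. Gsta4, the most abundant per length, fell from 362 ± 5.70 to 294 ± 24.3 CPM, a log2 fold change of -0.30 (SD, n = 3 each for all 5 genes), which was -0.16 with the length and GC offset.

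In the thioredoxin and peroxiredoxin list, which leaves out the members, 12 of 18 tested genes fell, 1 rose and 5 were not called. Over all tested genes, 30.9% were called lower and 33.5% higher. Their median log2 fold change was -0.27, and -0.15 with the length and GC offset. The number called higher was 3 with library size alone and 2 without WT C. Prdx6, a peroxiredoxin that uses glutathione, fell from 148.6 ± 6.05 to 74.1 ± 4.33 CPM (SD, n = 3 each), a log2 fold change of -1.004 (adjusted p = 1.18e-07, edgeR quasi-likelihood). Prdx3 and Txn2, the mitochondrial peroxiredoxin and thioredoxin, fell from 88.5 ± 2.89 to 63.7 ± 1.57 CPM and from 127 ± 4.01 to 94.5 ± 3.84 CPM, with log2 fold changes of -0.47 and -0.42. Msrb2, a mitochondrial methionine sulfoxide reductase, fell from 21.9 ± 0.550 to 16.3 ± 0.853 CPM (log2 fold change -0.42, and -0.28 with the length and GC offset). Txn1, the cytosolic substrate of Txnrd1, fell from 356 ± 7.61 to 313 ± 6.68 CPM (log2 fold change -0.18) and was not called with the length and GC offset. Prdx2, Prdx4 and Prdx5, chosen after their values were seen, had log2 fold changes of -0.30, -0.29 and -0.21 and were called lower, so all 6 peroxiredoxin genes, Prdx1 included, fell. With the length and GC offset Prdx2 and Prdx4 were at -0.18 and -0.15 and remained called, and Prdx5 was not called with that offset or with library size alone. The gene called higher in this list was Txnrd3, with a mean of 18.5 CPM in WT and 22.3 CPM in R783H. Its log2 fold change was 0.26 (adjusted p = 0.00411 in edgeR's quasi-likelihood test). Txnrd2 and Txnip were among the genes not called. Txnrd3, Txnrd2 and Txnip were added after their values were seen.

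**Figure D4:**
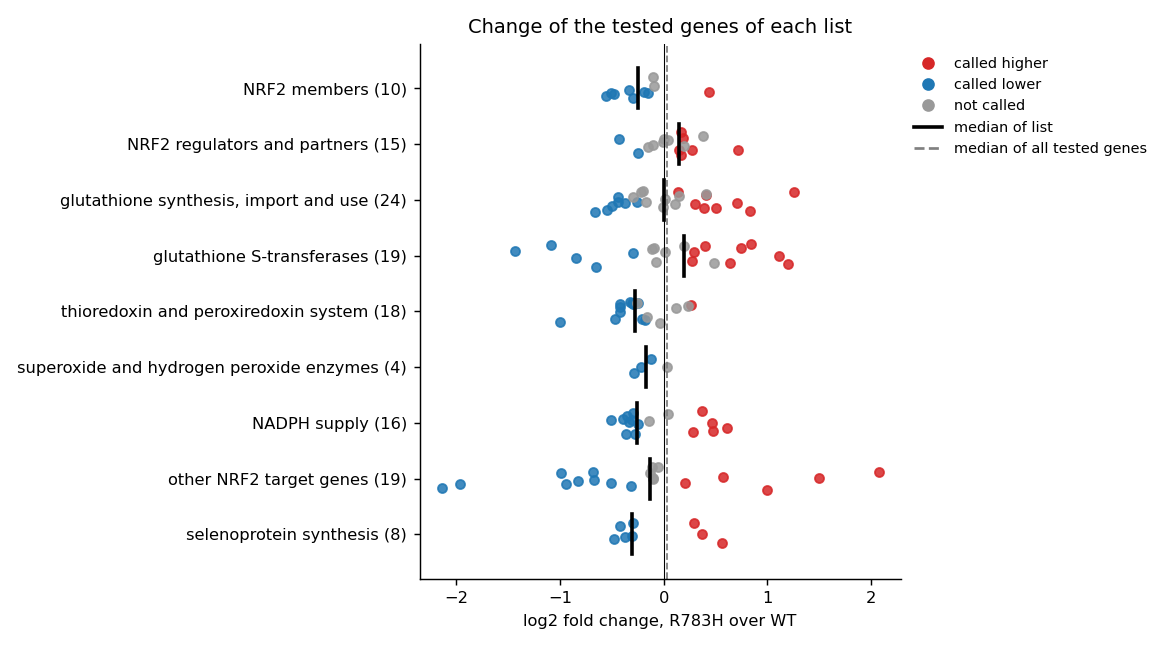
Log2 fold change (R783H over WT) of each tested gene of the members and of the other pathway lists, 1 row per list, with called genes in red (higher) or blue (lower), others in grey, and the list's median as a bar. The members and the thioredoxin, superoxide, NADPH, other NRF2 target and selenoprotein lists have medians under 0. Glutathione genes other than the members spread to both sides.

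Superoxide and hydrogen peroxide are removed by dismutases and catalase, and 3 of the 4 tested genes of that list of 5 fell. Sod1 (551 ± 27.0 to 453 ± 27.7 CPM, log2 fold change -0.28), the cytosolic dismutase, and Ccs (32.6 ± 0.660 to 27.9 ± 1.84 CPM, log2 fold change -0.22), its copper chaperone, fell. Sod2, the mitochondrial dismutase, fell from 241 ± 2.17 to 222 ± 3.29 CPM, a log2 fold change of -0.12 (adjusted p = 0.0194, edgeR quasi-likelihood). With library size alone only 1 of the 3 was called, the list's median of -0.17 was -0.090, Sod2 was not called without WT B or without WT C, and Ccs not with the length and GC offset, under which Sod2 was at -0.28. Cat, catalase, had 73.2 ± 0.968 CPM in WT and 75.0 ± 6.38 CPM in R783H and was not called, and Sod3 had at most 1 count in a library.

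NADPH is the electron source of glutathione and thioredoxin reductases. Of 16 genes listed for NADPH supply, 9 fell, 5 rose and 2 were not called, with a median log2 fold change of -0.26. The list also holds genes of the non-oxidative pentose phosphate pathway, such as Rpia and Taldo1, so these counts are not of NADPH-producing enzymes alone. The pentose phosphate genes Rpia (17.7 ± 0.502 to 12.4 ± 0.936 CPM, log2 fold change -0.51) and Taldo1 (367 ± 12.7 to 285 ± 25.3 CPM, log2 fold change -0.36, and -0.22 with the length and GC offset) fell. G6pdx and Pgd, the NADPH-producing steps of that pathway, were chosen after their values were seen and fell, with log2 fold changes of -0.31 and -0.35. Me1, cytosolic malic enzyme, rose from 61.0 ± 2.98 to 92.9 ± 1.95 CPM (log2 fold change 0.61). The mitochondrial enzymes Idh2 (139 ± 6.57 to 194 ± 13.4 CPM) and Nnt (55.5 ± 1.94 to 76.6 ± 5.38 CPM) also rose, with log2 fold changes of 0.47 and 0.46. Mthfd2 and Nadk2, the remaining genes called higher, had log2 fold changes of 0.37 and 0.28 and were added after their values were seen.

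Among 23 other genes described as NRF2 targets, 19 were tested, 9 fell, 5 rose and 5 were not called. Their median log2 fold change was -0.13, beside -0.046 with library size alone and -0.19 without R783H C, and 6 were called lower where 10 counts were required in every library. Cbr3, a carbonyl reductase, fell from 15.3 ± 0.0791 to 3.48 ± 0.487 CPM (SD, n = 3 each), a log2 fold change of -2.14 (adjusted p = 6.59e-08, edgeR quasi-likelihood). Fth1, the ferritin heavy chain and the most abundant of this list per length, fell from 702 ± 29.6 to 438 ± 24.3 CPM, a log2 fold change of -0.68, and Akr1b3, aldose reductase, from 33.6 ± 3.52 to 18.9 ± 1.14 CPM, a log2 fold change of -0.83. Ephx1, microsomal epoxide hydrolase, rose from 9.65 ± 1.21 to 19.3 ± 1.86 CPM, a log2 fold change of 0.99. The ferritin light chain Ftl1, chosen after its values were seen, had 49.1 ± 3.95 CPM in WT and 45.7 ± 0.486 CPM in R783H and was not called. Its log2 fold change was -0.17 and called lower without WT C, and 0.12 with the length and GC offset, called higher without the replicate block and not called with it.

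Txnrd1 contains selenocysteine, and all 8 factors listed for selenoprotein synthesis were called, 5 lower and 3 higher, with a median log2 fold change of -0.30. Over all tested genes, 64.5% were called, 30.9% as lower and 33.5% as higher. Sephs2, which makes the selenium donor, fell from 221 ± 2.93 to 158 ± 3.81 CPM (log2 fold change -0.48). Pstk, the kinase that prepares the selenocysteine transfer RNA, fell from 25.6 ± 1.22 to 19.1 ± 0.734 CPM (log2 fold change -0.42), and Trnau1ap, a protein associated with that transfer RNA, from 54.7 ± 2.88 to 42.3 ± 1.88 CPM (log2 fold change -0.37). Scly, which recovers selenium from selenocysteine, rose from 25.9 ± 1.08 to 38.3 ± 1.22 CPM (log2 fold change 0.56).

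**Figure D5:**
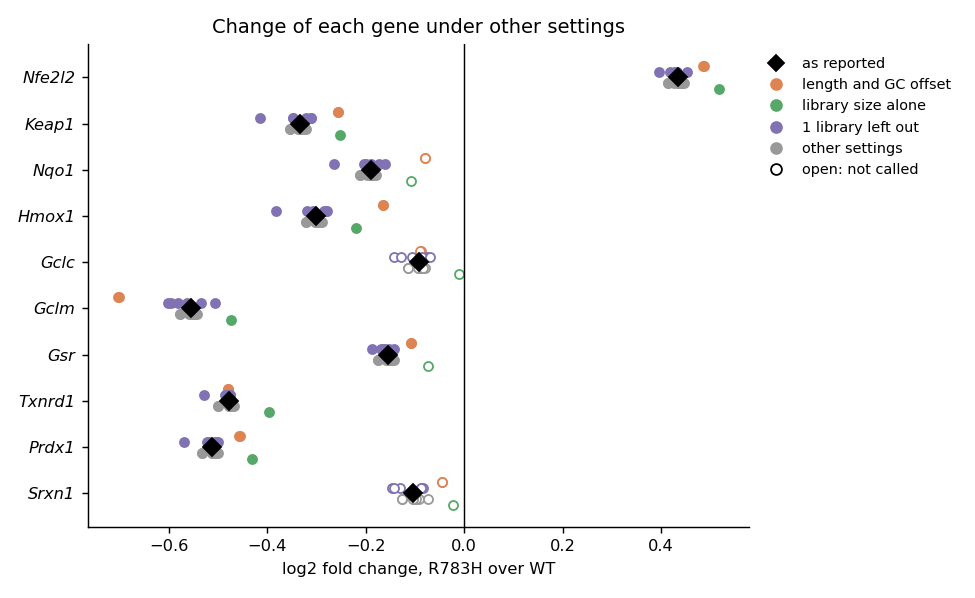
Log2 fold change (R783H over WT) of each member under the reported fit and each of 17 alternative settings, with values that were not called as open points. No member changed sign, and calls were lost for Nqo1 in 3 settings and for Gsr in 1.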

How the data were processed

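Oligo(dT)-selected RNA was sequenced from 3 WT and 3 R783H libraries. The authors deposited 1 table of counts per gene, whole numbers without normalization, per the file header. The submitters' processing notes name CASAVA 1.4, HISAT2, SAMtools and the build mm10. The counting tool, annotation and use of strand are not given in the sources used here. All columns were matched to samples by their titles (0 unassigned), and symbols and coordinates came from RefSeq on GRCm38.p6, which matched 25275 identifiers.

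Computation used R 4.3.3 and edgeR 4.0.16. The default filterByExpr filter (minimum count 10, minimum total 15) kept 14199 genes and removed at most 0.0558% of a library's counts. Libraries were TMM-scaled, and the quasi-likelihood test had group as its single term, and p-values were adjusted over every tested gene by Benjamini-Hochberg. SE is the log2 fold change divided by the square root of F. Intervals cover the spread between libraries. The common biological coefficient of variation was 5.45%. The steps were tested on simulated data, where 100 of 100 planted 2-fold changes and 97 of 100 planted 1.5-fold changes were recovered. Every member changed by less than 1.5-fold, and changes of that size were not planted. Lengths came from GENCODE M21, shared sequence from exon overlap and BLAST 2.17.0 (at least 98% identity over 100 nt).

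Members and lists were chosen with earlier results of these data known. The rule named all members, up to 4 called genes per other list with the largest change at 5 CPM or more in the higher group, each list's most abundant gene per length, and the superoxide list. Keap1, Gclm, Mafk, Sqstm1, Gss, Gstz1, Prdx2, Prdx5, G6pdx, Me1, Nnt, Ftl1, Ephx1, Sephs2, Pstk and Scly share exon sequence with another annotated gene, and Prdx1, Slc3a2, Sod1, Sod2, Rpia, Me1, Ftl1, Akr1b3 and Pstk share near-identical stretches, so their counts are uncertain. Mafg, Maff, Txnrd2, Txnrd3, Txnip, Cth, Mthfd2, Nadk2 and the glutathione peroxidases other than Gpx1 were not searched for shared sequence. Their single refits are not given. Alternatives were RLE factors, library size alone, upper-quartile factors, looser and stricter filters, DESeq2 1.42.0, limma voom 3.58.1, a replicate block, a length and GC offset (13067 genes), both together, equal depth, leaving out each library and, added after seeing the data, the principal transcript as length.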

Additional observations from a re-analysis of the deposited data

How the results depend on the processing

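Over 17 alternatives, no member changed direction, and 166 of 170 refits of single members kept their call. The other 4 lost it: Nqo1 with library size alone, the length and GC offset and the offset with the block, and Gsr with library size alone. The number of members called lower was thus 5 with library size alone and 6 with either offset. The median log2 fold change of the members, -0.25, was -0.16 with library size alone, -0.14 with the length and GC offset, -0.14 with the replicate block and that offset, and -0.32 to -0.22 when 1 library was left out. Library size alone shifted the median of all tested genes by 0.08 and gave 61.2% higher among called genes, beside 52.0% with TMM. With the replicate block 9260 genes were called, beside 9152, and the members gave 1 higher and 7 lower. Correlations of deviations between R783H and WT libraries of the same letter were -0.07 for A, 0.01 for B and 0.09 for C. Those of unlike letters ran from -0.13 to 0.13. Whether a letter marks a shared culture or day cannot be told from so few libraries. Leaving out 1 library gave 8161 to 9882 called genes.

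The median of glutathione synthesis genes reversed with RLE factors (-0.019), DESeq2 (-0.019), limma voom (-0.000524) and equal depth (-0.013), and ran from -0.066 to 0.031 when 1 library was left out. The median of glutathione transferases was -0.068 without the filter. Sqstm1 reversed with library size alone (0.071), upper-quartile factors (0.00117), the offset (0.060) and the offset with the block (0.060), and ran from -0.096 to 0.030 when 1 library was left out. Cat ran from -0.023 to 0.080 in those refits, and Ftl1 was 0.12 with either offset. The causes were not tested. Log2 fold changes rose slightly with transcript length (Spearman rho 0.256 across genes, which are not independent), and the offset tested fewer genes.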
